A study of Mus musculus with 22 samples.

Results

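The genes described here are 39 mouse genes of DNA replication and S phase, taken by symbol from a list. It names the replicative helicase, the factors that load and start it, the polymerases, the sliding clamp and its loaders, the enzymes of nucleotide supply, regulators of the step into S phase, and chromatin assembly factors. A listed gene was used where it reached at least 1 CPM, the count scaled by library size, in at least 5 of the 22 libraries. All 39 of the 39 listed genes met that condition, each in 22 of 22 libraries, out of 24091 gene names in the table, of which 11453 met it and were tested. The cells were T cells of wild-type (WT) C57BL/6 donors, sorted on day 7 from lethally irradiated WT BALB/C mice that had been injected with donor spleen and bone marrow cells. Recipients received a monoclonal antibody against interleukin 2 (anti-IL-2) or control IgG every other day on days 0 to 6. Irradiation, transplant and strain combination are therefore shared by all groups, and no group without a transplant was analysed. The groups were CD8 and CD4 cells from gut (colon) and spleen. Each of the 4 populations had 3 anti-IL-2 libraries, each gut population had 2 IgG libraries, and each spleen population had 3 IgG libraries. The age and sex of the mice are not given in the sources used here, and recipients without PD-L1, which the series title also names, were not analysed here.

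Before a cell divides, its DNA is copied once. In G1 the origin recognition complex, with Cdc6 and Cdt1, loads the MCM2-7 helicase onto DNA (licensing), and at the start of S phase Cdc45 and the GINS complex turn it into a moving helicase. E2F transcription factors switch on many of these genes at the G1/S step, so their transcripts are plentiful in dividing lymphocytes and scarce in resting ones. Interleukin 2, acting through STAT5, is a growth signal of activated T cells, and donor T cells that meet foreign tissue in a transplant recipient divide strongly in its lymphoid organs.

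The labels name 3 batches, 181201, 181212 and 190306. Each group had 1 library per batch, except that batch 181201 has no gut IgG library here. Nothing in the labels says whether libraries of a batch share an animal or a pool of animals, so the p-values measure the spread between libraries, which may be technical. Total counts ran from 14628806 to 24518362 per library. The sort fitted the labels: Cd8a was at 906 to 2140 CPM in CD8 libraries, against 0.117 to 3.66 CPM in CD4 libraries, and Cd4 was at 0.323 to 7.08 CPM in CD8 libraries, against 1780 to 2550 CPM in CD4 libraries. For the 5 CD8 IgG libraries the free-text description names the other tissue, and the tissue given in the source name and the characteristics was used. Batch 190306 stands apart: between 2 libraries of 1 group, the chi-square per gene was 40.9 to 90.3 where 1 of them came from this batch, against 6.81 to 13 between batches 181201 and 181212. In the spleen its treatment difference also ran opposite to that of the other batches for most of the 39 genes. Whether treatment labels were exchanged in that batch could not be checked here, and an exchange would turn the sign of each of its treatment differences. No library was given another label, and results are given with and without it. Values of a group are listed below in the order of batches 181201, 181212 and 190306, so that the values of a gut IgG group come from 181212 and 190306.

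The promoter windows of 4 members are shown because these genes share an E2F-type sequence and span called and uncalled members. In the spleen of batches 181201 and 181212 Mcm5 and Orc1 fell with anti-IL-2, and Mcm6 and Pola1 did not pass the test. In the gut of those batches Mcm5, Mcm6 and Pola1 rose in both populations, and Orc1 did not pass. In batch 190306 Mcm5 and Orc1 were higher with anti-IL-2, and over all batches none of the 4 passed. Each window, taken from RefSeq on build GRCm38.p6, runs from 250 bases before to 50 bases after the annotated start and is written 5′ to 3′ on the strand of the gene. Capitals mark matches to TTTCGCGC or TTTGGCGC, searched on both strands, so that GCGCGAAA and GCGCCAAA also count. Where 2 matches overlap they share the letters GCGC and form 1 run of capitals.
Mcm5, helicase subunit, chr8:75109259-75109558, plus strand: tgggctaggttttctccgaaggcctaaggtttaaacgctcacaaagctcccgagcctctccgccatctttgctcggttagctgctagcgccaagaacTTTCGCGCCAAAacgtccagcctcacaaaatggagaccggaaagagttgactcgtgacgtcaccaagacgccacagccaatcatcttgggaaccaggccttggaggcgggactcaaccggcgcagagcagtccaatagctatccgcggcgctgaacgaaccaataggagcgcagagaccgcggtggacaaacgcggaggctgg
Mcm6, helicase subunit, chr1:128359656-128359955, minus strand: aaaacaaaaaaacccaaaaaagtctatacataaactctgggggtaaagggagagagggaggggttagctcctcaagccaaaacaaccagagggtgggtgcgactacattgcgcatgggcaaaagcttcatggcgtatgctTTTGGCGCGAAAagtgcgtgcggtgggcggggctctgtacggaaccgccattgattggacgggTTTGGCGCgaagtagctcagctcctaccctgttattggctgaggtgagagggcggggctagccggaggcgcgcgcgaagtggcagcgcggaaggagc
Orc1, largest subunit of the origin recognition complex, chr4:108579204-108579503, plus strand: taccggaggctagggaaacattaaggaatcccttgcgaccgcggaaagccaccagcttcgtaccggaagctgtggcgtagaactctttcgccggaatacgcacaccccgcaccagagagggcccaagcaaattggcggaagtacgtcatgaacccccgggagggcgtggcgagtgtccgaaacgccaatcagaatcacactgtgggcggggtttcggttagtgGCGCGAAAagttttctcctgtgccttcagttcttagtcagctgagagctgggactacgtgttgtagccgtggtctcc
Pola1, catalytic subunit of DNA polymerase alpha, chrX:93632106-93632405, minus strand: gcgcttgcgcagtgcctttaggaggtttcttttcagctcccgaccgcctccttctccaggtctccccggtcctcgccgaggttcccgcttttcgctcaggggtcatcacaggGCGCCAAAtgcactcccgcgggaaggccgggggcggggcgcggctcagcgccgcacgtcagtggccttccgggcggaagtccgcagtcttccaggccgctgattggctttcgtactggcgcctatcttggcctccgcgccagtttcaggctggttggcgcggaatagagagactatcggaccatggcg
The first match began 153 bases before the start in Mcm5, which had 2 overlapping matches, and 110 bases before it in Mcm6, which had 3. In Orc1 it began 27 bases before the start, and in Pola1 138 bases before it. Of the 39 members, 32 had a RefSeq window, and 10 of these (31.2%) held a match: Mcm3, Mcm5, Mcm6, Mcm7, Orc1, Cdt1, Pola1, Rfc3, Lig1 and Uhrf1. No window was matched to Mcm4, Gins1, Gins2, Pole, Rfc2, Dscc1 and Ccne2. Over all genes with a window the share was 0.929% of 27025, and over tested genes it was 1.9% of 8943. Of the 25 mitosis genes described further on, 1 of 22 with a window (4.55%) held a match. With 1 letter fewer (TTCGCGC or TTGGCGC, both strands) the share was 34.4% of members and 8.43% of tested genes. A match describes the letters only, and binding of a factor was not measured.

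Taken as a group, the 39 genes were at their highest in CD8 cells, and the level in the spleen depended on the batch. The mean over the 39 genes on the log2 CPM scale was 6.06 to 6.23 in gut CD8 libraries with anti-IL-2, against 5.75 to 5.77 with IgG, and the groups did not overlap. In spleen CD8 libraries it was 6.05 to 6.56 with anti-IL-2, against 6.24 to 6.37 with IgG, and the anti-IL-2 library of batch 190306 lay above and the other anti-IL-2 libraries below every IgG library. The gut CD4 mean was 5.25 to 5.44 with anti-IL-2, against 5.16 to 5.24 with IgG. Spleen CD4 libraries had 5 to 5.52 with anti-IL-2, against 5.21 to 5.49 with IgG, again with the anti-IL-2 library of batch 190306 highest. The 39 genes together took 0.309% to 0.549% of the counts of a CD8 library, against 0.208% to 0.278% of those of a CD4 library. In sorted bulk cells, fewer cells in S phase and less RNA of these genes per cell cannot be told apart, and that holds for each result below.

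**Figure D1:**
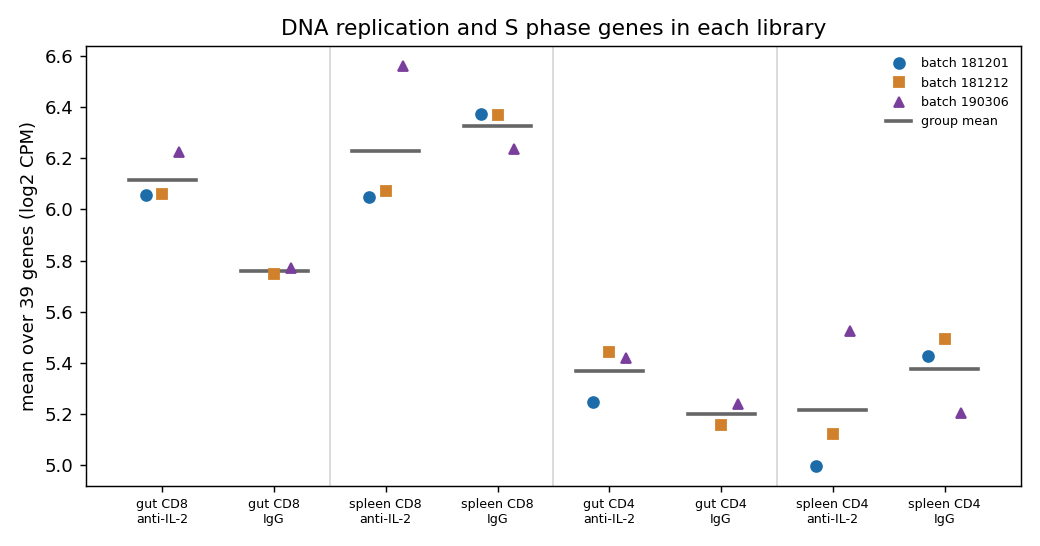
Mean log2 CPM over the 39 genes (y axis) in each of the 22 libraries, by population and treatment (x axis), with 1 point per library, the symbol giving the batch and the bar the group mean. The 11 CD8 libraries lie between 5.75 and 6.56, all above the 11 CD4 libraries at 5 to 5.52.

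Per kilobase of exon, averaged over the libraries, the helicase subunit Mcm6 had the highest level with 83.9 CPM, followed by the single-strand binding protein Rpa2 with 69.4, Mcm3 with 68.4 and the sliding clamp Pcna with 68.3 CPM. The lowest were the cyclin Ccne2 with 3.20, Orc1 with 3.22, the GINS subunit Gins2 with 3.48 and the clamp loader subunit Dscc1 with 4.002 CPM per kilobase. Within the 11 CD8 libraries, the correlation of a member with the mean of the other 38 had a median of 0.884 and ran from 0.443 for the clamp loader subunit Rfc2 to 0.992 for Mcm10. Within the 11 CD4 libraries the median was 0.693, and the range ran from -0.0168 for Pola1 to 0.954 for the thymidine kinase Tk1. Below 0.2 in CD4 cells were Pola1, Rfc2, Pcna and Mcm6. These correlations describe libraries that share batch and treatment, and carry no test.

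Donor CD8 cells carried more of the replication transcripts than donor CD4 cells from the same organ, with no exception in spleen. In spleen 39 of 39 members were higher in CD8 cells and none was lower, where 30.6% of all tested genes were higher and 31.6% lower. The median difference of the members was 0.96 on the log2 scale, against -0.0126 over all tested genes. In gut 38 of 39 were higher, where 24.2% of all tested genes were higher and 25.7% lower, and the members' median was 0.706. The exception was Pcna, the ring that holds polymerases on DNA, at 0.21 ± 0.094 (adjusted p = 0.0782) in gut, against 0.62 ± 0.086 (adjusted p = 9.6e-06) in spleen. These values come from edgeR's quasi-likelihood test, which pairs the populations within each batch and treatment, with an adjusted p under 0.05 counted as passing, and ± gives the standard error (SE).

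Dscc1, a subunit of an alternative clamp loader, differed most in both organs. Its lowest, median and highest level was 7.10, 9.81 and 13.4 CPM in spleen CD8 cells, against 3.04, 3.53 and 4.38 CPM in spleen CD4 cells (n = 6 each), and the groups did not overlap. The CD8 over CD4 difference was 1.48 ± 0.17 (adjusted p = 6.1e-07) in spleen and 1.04 ± 0.19 (adjusted p = 0.000207) in gut. Next in spleen came Mcm10, which helps to activate the helicase, at 1.42 ± 0.13, Orc1 at 1.34 ± 0.15, the GINS subunit Gins1 at 1.30 ± 0.11, the DNA ligase Lig1 at 1.28 ± 0.12 and Tk1, which salvages thymidine, at 1.24 ± 0.13. In gut the same measure was 0.95 ± 0.15 for Tk1, 0.94 ± 0.14 for Mcm10, 0.91 ± 0.13 for Gins1, 0.90 ± 0.10 for the clamp loader subunit Rfc3 and 0.88 ± 0.13 for the loading factor Cdc6. The smallest differences in spleen were those of Cdt1, Cdc6's partner in loading, with 0.52 ± 0.046, and of the histone mRNA binding protein Slbp, with 0.55 ± 0.058. In gut they were 0.36 ± 0.050 for Cdt1 and 0.20 ± 0.064 for Slbp, and only Slbp and Pcna were below Cdt1 there.

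Within each batch and treatment, 38 of 39 members were higher in the CD8 library in 11 of 11 pairs, and Pcna was in 10. The share of all tested genes higher in all 11 pairs is not given here. Every spleen CD8 library lay above every spleen CD4 library for 37 of 39 members, which was so for 11.2% of all tested genes, and the exceptions were Cdt1 and Ccne2. The same held for 28 of 39 members in gut, against 8.27% of all tested genes. Without batch 190306 the count of members past the test was 39 in spleen and 36 in gut. The share of all tested genes without that batch is not given here. Markers of B cells summed to 20.2 to 62.8 CPM in spleen CD8 libraries, against 62.1 to 183 CPM in spleen CD4 libraries, with 5 of 5 markers lower on average. Gut CD8 libraries had 42.1 to 98.1 CPM of macrophage markers, against 15 to 60.4 CPM in gut CD4 libraries, with 8 of 8 higher on average. The part of these cells in the result was not tested.

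**Figure D2:**
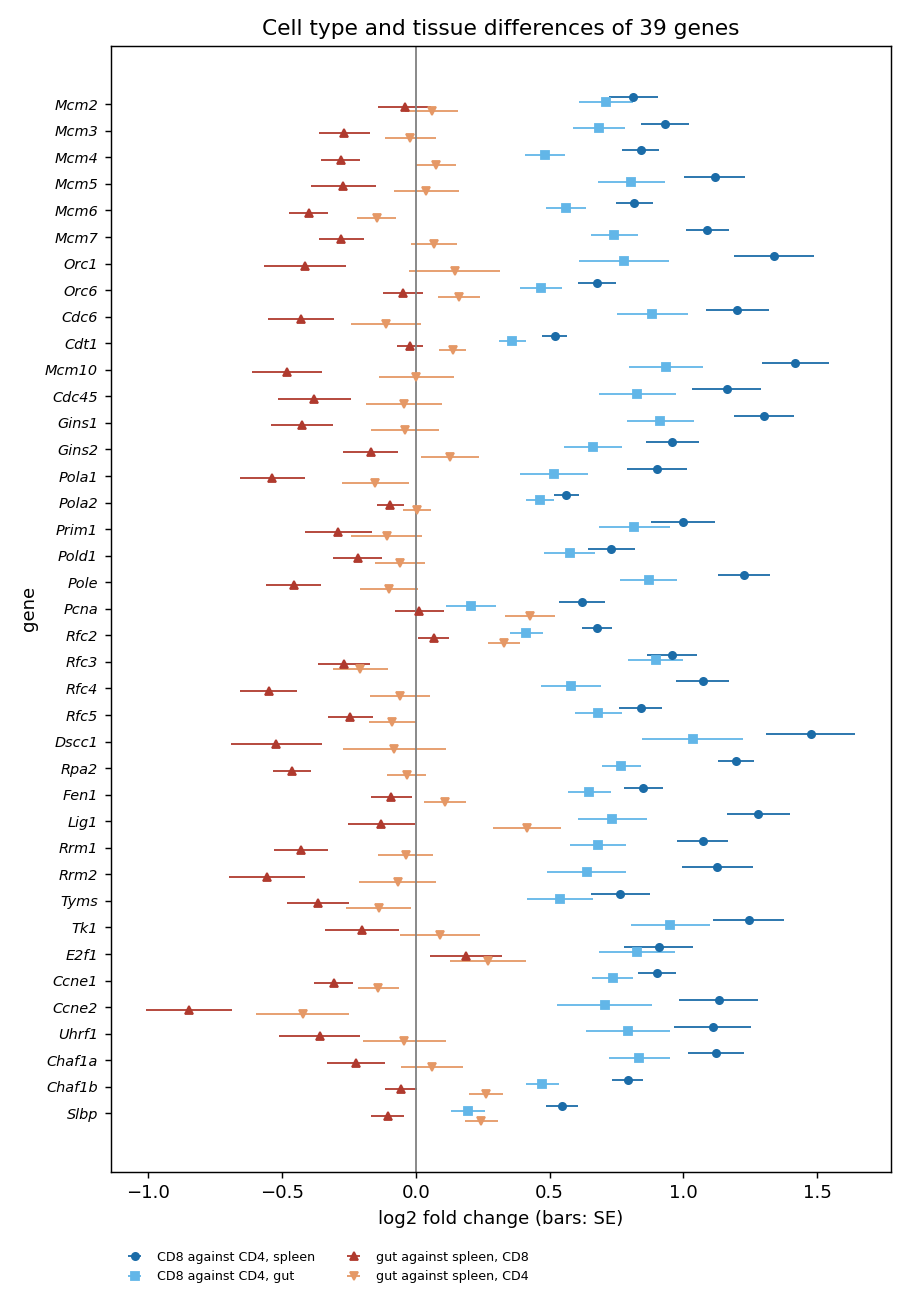
Log2 fold change (x axis) with its standard error for each of the 39 genes (y axis, in the order of their roles), for CD8 against CD4 cells in spleen and gut and for gut against spleen in CD8 and CD4 cells. All CD8 against CD4 differences lie right of 0, from 0.52 to 1.48 in spleen and from 0.196 to 1.04 in gut, and the gut against spleen differences lie left of 0 for 36 genes in CD8 cells and for 20 in CD4 cells.

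Between the organs, CD8 cells from the gut had less of many replication transcripts than CD8 cells from the spleen, and few of them differed between CD4 cells of gut and spleen. In CD8 cells 21 of 39 members were lower in gut and none was higher, where 26.2% of all tested genes were lower and 24.4% higher, with a members' median of -0.278, against -0.016 over all tested genes. In CD4 cells 6 members were higher in gut and none was lower, where 26.1% of all tested genes were higher and 24.8% lower. The median was -0.0206, against -0.00316 over all tested genes. There 3 members were lower without the gut CD4 anti-IL-2 library of 181212, 2 without the spleen CD4 anti-IL-2 library of 181201, and 1 without the gut CD8 anti-IL-2 library of 181201 or 181212, the gut CD8 IgG library of 181212 or the spleen CD8 anti-IL-2 library of 181201. The count in CD8 cells rested on batch 190306 in part: without it, 4 members were lower and 1, Pcna, was higher. The difference between the organs in CD8 cells was itself lower than that in CD4 cells for 4 of 39 members, Mcm4, Rpa2, the chromatin assembly subunit Chaf1b and Slbp, where 2.7% of all tested genes were lower and 2.72% higher, and for 2, Rpa2 and Pcna, without batch 190306. Left-out libraries moved that count between 1 and 9. It was 1 without the spleen CD4 anti-IL-2 library of 181212 or either gut CD4 anti-IL-2 library of 181201 and 181212, 7 without the spleen CD4 IgG library of 181212 and 9 without the gut CD8 anti-IL-2 library of 181201. It was 2 without any of the spleen or gut CD8 IgG libraries, the spleen CD4 IgG libraries of 181201 and 190306, the gut CD4 IgG library of 190306, the spleen CD4 anti-IL-2 library of 181201 or the spleen CD8 anti-IL-2 library of 190306.

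Ccne2, a cyclin E that drives the step into S phase, differed most between gut and spleen CD8 cells. It had 12.4, 8.59 and 9.15 CPM in gut CD8 libraries with anti-IL-2 and 8.18 and 6.32 CPM with IgG, against 12.5, 19.9 and 15.8 CPM in spleen CD8 libraries with anti-IL-2 and 22.3, 22.8 and 11.3 CPM with IgG. Gut was below spleen in each batch and treatment, and the ranges of the organs overlapped. The gut over spleen difference was -0.85 ± 0.16 (adjusted p = 0.00032) in CD8 cells and -0.42 ± 0.17 (adjusted p = 0.0516) in CD4 cells. Next in CD8 cells were Rrm2, the regulated subunit of ribonucleotide reductase, at -0.56 ± 0.14, the clamp loader subunit Rfc4 at -0.55 ± 0.11, Pola1 at -0.54 ± 0.12, Dscc1 at -0.52 ± 0.17 and Mcm10 at -0.48 ± 0.13. Of these, Rrm2, Pola1, Dscc1 and Mcm10 no longer passed without batch 190306. Mcm6, Rpa2 and the large reductase subunit Rrm1 were the 3 members whose gut CD8 libraries all lay below all spleen CD8 libraries, as did 6.67% of all tested genes.

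The 6 members that were higher in gut CD4 cells did not belong to 1 role. Pcna had 105, 105 and 91.6 CPM in gut CD4 libraries with anti-IL-2 and 126 and 87.1 CPM with IgG, against 69.5, 73.01 and 83.95 CPM in spleen CD4 libraries with anti-IL-2 and 84.5, 72.1 and 78.7 CPM with IgG. Every gut CD4 library was above every spleen CD4 library, and the difference was 0.43 ± 0.093 (adjusted p = 0.00110). Rfc2, a subunit of the clamp loader, showed the same separation at 0.33 ± 0.060 (adjusted p = 0.000199), which 6.85% of all tested genes did. Lig1 followed at 0.42 ± 0.13, Chaf1b at 0.26 ± 0.062, Slbp at 0.25 ± 0.063 and Cdt1 at 0.14 ± 0.050, and of these Lig1 and Cdt1 did not pass without batch 190306. Stress and immediate early genes, which rise when tissue is digested, summed to 1190 to 2920 CPM in gut CD4 libraries, against 256 to 894 CPM in spleen CD4 libraries, and to 697 to 2550 CPM in gut CD8 libraries, against 197 to 499 CPM in spleen CD8 libraries. Epithelial markers summed to 17.8 to 95.7 CPM in gut CD4 libraries, against 5.86 to 7.75 CPM in spleen CD4 libraries. Their part in the organ differences was not tested.

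By mean level, 22 members were in the order spleen CD8, gut CD8, spleen CD4, gut CD4, and 14 in the same order with the CD4 populations exchanged. Pcna, Rfc2 and the transcription factor E2f1 were highest in gut CD8 cells. By the tests, CD8 and CD4 cells of an organ differed for all members except Pcna in gut, whereas gut and spleen CD8 cells did so for 21 and gut and spleen CD4 cells for 6. The direction between the organs also changed with treatment and batch. In CD4 cells with anti-IL-2, 37 members were higher in gut in batch 181201 and 36 in batch 181212, but 28 were lower in gut in batch 190306. With IgG, 32 were lower in gut in batch 181212 and 24 were higher in batch 190306. The share of all tested genes with each of these directions is not given here.

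The main question of the series, how anti-IL-2 changes the donor T cells, gave for these genes an answer that depended on the organ and the batch. With all 3 batches in 1 model, no member passed the test in any of the 4 populations, and neither did any other gene (0% of tested genes). The medians of the members were 0.402 in gut CD8, 0.209 in gut CD4, -0.0907 in spleen CD8 and -0.163 in spleen CD4 cells, on the log2 scale of anti-IL-2 over IgG. At an unadjusted p under 0.05 there were 22 members in gut CD8 cells, where 7.34% of all tested genes reached that, and 2 in gut CD4 cells (5.77%). In the spleen there was none in CD8 cells (1.1%) and 1 in CD4 cells (2.25%). DESeq2 called 1 member higher in gut CD8 cells and none elsewhere. The batches were then taken singly. Of the spleen CD8 pairs, 38 of 39 members were lower with anti-IL-2 in batch 181201 and 38 in batch 181212, with medians of -0.351 and -0.313, and 39 were higher in batch 190306, with a median of 0.348. Spleen CD4 cells had 37 lower, 37 lower and 37 higher in the same order of batches, with medians of -0.377, -0.432 and 0.346. In gut CD8 cells 35 were higher in batch 181212 and 39 in batch 190306, with medians of 0.321 and 0.463. Of the gut CD4 pairs, each had 32 members higher, with medians of 0.335 in batch 181212 and 0.215 in batch 190306. Over all genes the within-batch medians ran from -0.0174 to 0.00914, and the share of all tested genes higher in each pair is not given here.

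**Figure D3:**
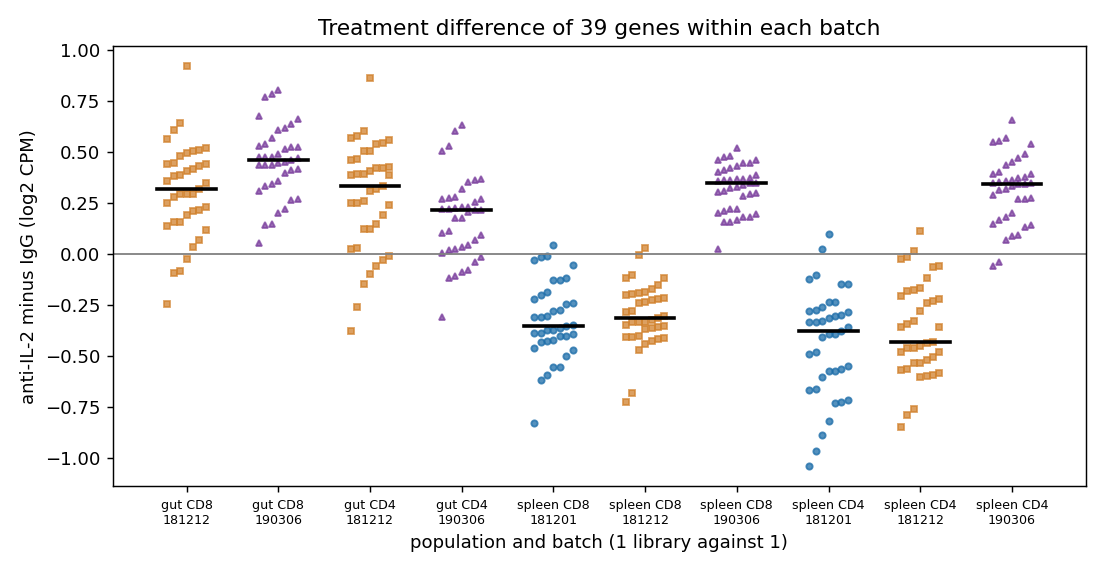
Difference in log2 CPM between the anti-IL-2 and the IgG library of the same batch (y axis), 1 point per gene for the 39 genes, by population and batch (x axis), with a bar at the median. The medians of the gut pairs and of the spleen pairs of batch 190306 lie between 0.215 and 0.463, and those of the spleen pairs of batches 181201 and 181212 between -0.432 and -0.313.

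In batches 181201 and 181212, fitted together, anti-IL-2 went with fewer replication transcripts in the spleen. Spleen CD4 cells had 26 of 39 members lower and none higher, where 11.8% of all tested genes were lower and 10.8% higher, and the members' median was -0.412. Spleen CD8 cells had 21 lower and none higher, where 7.18% of all tested genes were lower and 7.08% higher, and the median was -0.342. Over all tested genes the medians ran from -0.00741 to 0.00403 in the 4 populations. The lists shared 20 genes, which is 20 of 21 for CD8 and 20 of 26 for CD4 cells. The share of all tested genes on both lists is not given here. All 4 spleen pairs of these batches had the lower value with anti-IL-2 for 34 members, and the others were Mcm6, Pola1, Pcna, Rfc2 and Rpa2. The share of all tested genes lower in all 4 pairs is not given here. These batches were fitted together knowing that their spleen differences agreed, so the agreement of the pairs restates that choice. With 5 residual degrees of freedom the counts depended on single libraries: without the spleen CD4 anti-IL-2 library of batch 181201 there were 17 in spleen CD4 cells, and in spleen CD8 cells there were 5 without the IgG library of batch 181201 and 6 without the anti-IL-2 library of batch 181212.

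In the gut, the same batches had more replication transcripts with anti-IL-2. Gut CD8 cells had 16 of 39 members higher and none lower, where 5.89% of all tested genes were higher and 5.71% lower, and the median was 0.368. In gut CD4 cells 13 rose and 1, Pcna, fell, where 6.7% of all tested genes were higher and 6.77% lower, and the median was 0.282. The gut CD8 and gut CD4 lists overlapped, and the share of all tested genes on both lists is not given here. Both lists take their IgG level from batch 181212, so their overlap is not an independent repeat. Each gut IgG group has 1 library in these batches, from 181212, and that library was assumed to vary like the other groups. Without the gut CD4 anti-IL-2 library of 181212 there were 2 members higher in gut CD4 cells, and the lower call of Pcna was lost without any 1 of 8 libraries, namely the anti-IL-2 libraries of gut CD4, gut CD8 and spleen CD8 cells and the spleen CD8 IgG libraries. There were 5 higher, and none lower, where batch was not in the model.

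The opposite directions of the organs in batches 181201 and 181212 were tested as such. These batches were fitted together knowing that their spleen differences agreed, so the spleen direction was chosen beforehand. In batch 190306, which did not enter this test, the members' medians were positive in both organs. The treatment effect in gut was above that in spleen for 22 of 39 members in CD8 cells, where 1.67% of all tested genes were higher and 1.26% lower, and for 21 of 39 in CD4 cells, where 4.04% were higher and 2.46% lower. The medians of this difference were 0.667 in CD8 and 0.621 in CD4 cells, against 0.00476 and -8.49e-05 over all tested genes, and no member was lower. In CD8 cells the count was 14 without the gut anti-IL-2 library of 181201, 12 and 11 without the spleen anti-IL-2 libraries of 181201 and 181212, 12 and 13 without the spleen IgG libraries, and 8 where batch was not in the model. In CD4 cells it was 11 without the gut anti-IL-2 library of 181212. Cdc45, Cdc6, the chromatin assembly subunit Chaf1a, Lig1, Mcm2, Mcm5, Rrm1, Rrm2 and Uhrf1 passed in all 4 populations, lower in both spleen and higher in both gut populations. The share of all tested genes that did so is not given here. Between CD8 and CD4 cells the treatment effect differed for no member by edgeR. That was so in spleen, where 0.943% of all tested genes were higher and 0.192% lower, and in gut, where 0.0786% were higher and 0.0262% lower. At an unadjusted p under 0.05 there were 2 members in spleen (8.98% of all tested genes) and 3 in gut (7.37%), and DESeq2 called none. The smallest adjusted p was 0.305 in spleen and 0.525 in gut.

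Batch 190306 was set apart partly because its spleen differences ran the other way, so the spleen counts restate that observation and give their size. Its difference of anti-IL-2 minus IgG was above theirs for 29 of 39 members in spleen CD8 cells, where 8.93% of all tested genes were higher and 9% lower, and for 30 of 39 in spleen CD4 cells, where 13.3% were higher and 12.7% lower. The members' medians were 0.69 in CD8 and 0.721 in CD4 cells, against 0.00618 and 0.0133 over all tested genes, and none was lower. An unadjusted p under 0.05 was reached by 35 members in spleen CD8 cells (30.1% of all tested genes) and by 33 in spleen CD4 cells (36.6%). The largest differences in spleen CD8 cells were 1.05 ± 0.27 for Orc1, 0.96 ± 0.13 for Uhrf1, 0.95 ± 0.15 for Cdt1, 0.94 ± 0.16 for Mcm10, 0.92 ± 0.27 for Dscc1 and 0.90 ± 0.11 for Rrm2. In spleen CD4 cells they were 1.35 ± 0.32 for Orc1, 1.27 ± 0.41 for Ccne2, 1.25 ± 0.19 for Tk1, 1.21 ± 0.12 for Rrm2, 1.05 ± 0.17 for Ccne1 and 1.02 ± 0.14 for Uhrf1. In gut CD8 cells 3 members were higher and none lower, where 6.99% of all tested genes were higher and 6.95% lower. These were Cdt1 at 0.83 ± 0.16, the cyclin Ccne1 at 0.74 ± 0.18 and the primase Prim1 at 0.49 ± 0.13. In gut CD4 cells 2 were higher and 3 lower, where 8.4% of all tested genes were higher and 7.8% lower: Ccne1 at 0.83 ± 0.19 and Cdt1 at 0.62 ± 0.17, against Pola1 at -1.12 ± 0.16, Uhrf1 at -0.49 ± 0.16 and Mcm6 at -0.46 ± 0.12. Each group of batch 190306 holds 1 library, so the spread came from the other batches. For gut CD4 cells the count was 1 higher without either gut CD4 anti-IL-2 library of the other batches and 1 lower without that of 181212. In gut CD8 cells 1 member was lower without the anti-IL-2 library of 181212.

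**Figure D4:**
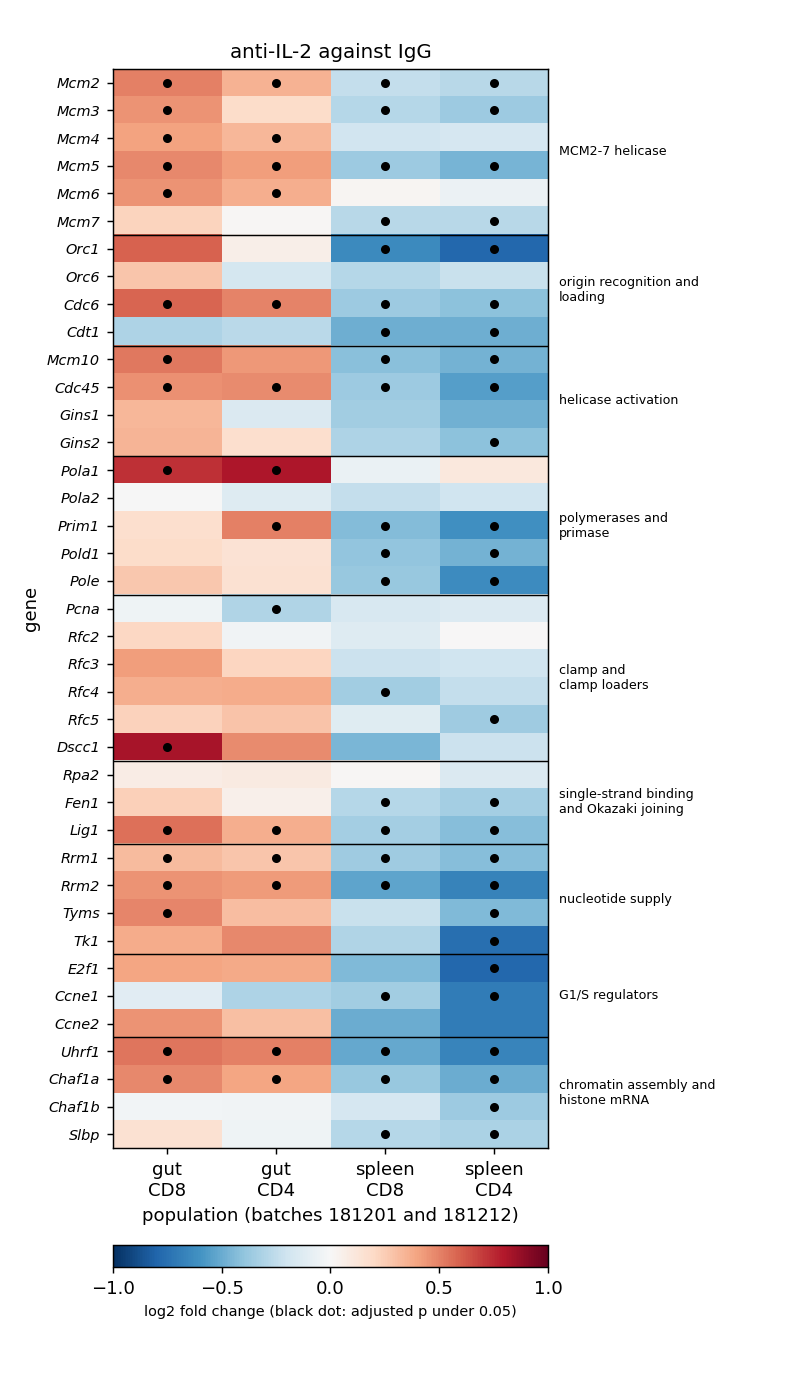
Log2 fold change of anti-IL-2 over IgG in batches 181201 and 181212 (colour, from blue for lower to red for higher) for the 39 genes (y axis, grouped by role) in the 4 populations (x axis), with a black dot where the adjusted p is under 0.05. The gut columns are mostly red with 16 and 13 genes called higher, and the spleen columns mostly blue with 21 and 26 genes called lower.

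The MCM2-7 helicase is a ring of 6 different subunits that unwinds DNA ahead of the polymerases. Here and for the roles below, rises, falls and effects refer to batches 181201 and 181212, where 5.89% and 6.7% of all tested genes were higher in gut CD8 and CD4 cells, and 7.18% and 11.8% lower in spleen CD8 and CD4 cells. With all batches no member passed. In the gut 5 of the 6 subunits rose in CD8 and 4 in CD4 cells, and 4 fell in each spleen population, where in batch 190306 those 4 were higher with anti-IL-2. Mcm5 had 271, 264 and 328 CPM with anti-IL-2, against 194 and 245 CPM with IgG in gut CD8 cells, and 140.3, 164 and 163 CPM with anti-IL-2, against 115 and 158 CPM with IgG in gut CD4 cells. In spleen CD8 cells it had 255, 256 and 424 CPM with anti-IL-2, against 334, 322 and 328 CPM with IgG, and in spleen CD4 cells 106, 124 and 192 CPM with anti-IL-2, against 157, 158 and 148 CPM with IgG. Gut CD8 libraries with anti-IL-2 were all above those with IgG, whereas in spleen only the library of batch 190306 was above. In batches 181201 and 181212 the effect on Mcm5 was 0.48 ± 0.096 (adjusted p = 0.00706) in gut CD8 and 0.42 ± 0.098 (adjusted p = 0.0146) in gut CD4 cells. In the spleen it was -0.36 ± 0.075 (adjusted p = 0.00614) in CD8 and -0.46 ± 0.077 (adjusted p = 0.000823) in CD4 cells. Its gut minus spleen difference in effect was 0.84 ± 0.12 in CD8 and 0.88 ± 0.12 in CD4 cells, both past the test.

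Mcm6 and Mcm4 were the subunits that passed in neither spleen population, Mcm4 with -0.19 ± 0.070 in CD8 and -0.16 ± 0.072 in CD4 cells. Mcm6 had 515, 506 and 524 CPM with anti-IL-2, against 498, 507 and 514 CPM with IgG in spleen CD8 cells and 273, 307 and 276 CPM with anti-IL-2, against 293, 310 and 283 CPM with IgG in spleen CD4 cells, and the treatments overlapped. The effect was 0.022 ± 0.062 (adjusted p = 0.872) in spleen CD8 and -0.056 ± 0.063 (adjusted p = 0.578) in spleen CD4 cells. In gut it rose, by 0.45 ± 0.080 (adjusted p = 0.00383) in CD8 and 0.36 ± 0.080 (adjusted p = 0.0108) in CD4 cells, although in gut CD4 cells its batch 190306 value of 225 CPM with anti-IL-2 was below the 239 CPM with IgG. Mcm7, by contrast, fell in both spleen populations, with -0.27 ± 0.076 in CD8 and -0.28 ± 0.081 in CD4 cells, and did not pass in gut, at 0.22 ± 0.098 in CD8 and 0.0088 ± 0.10 in CD4 cells. The values for Mcm2, Mcm3 and Mcm4 in gut CD8 cells were 0.50 ± 0.079, 0.45 ± 0.084 and 0.40 ± 0.090, all past the test.

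Loading of the helicase needs the origin recognition complex, Cdc6 and Cdt1. In batches 181201 and 181212 Cdc6 and Cdt1 both fell in the spleen, and in the gut Cdc6 rose and Cdt1 did not pass. Cdc6 had 33.3, 35.9 and 40.9 CPM with anti-IL-2, against 24.3 and 26.7 CPM with IgG in gut CD8 cells, and 35.1, 37.7 and 54.5 CPM with anti-IL-2, against 45.5, 48.3 and 40.3 CPM with IgG in spleen CD8 cells. It rose by 0.59 ± 0.11 (adjusted p = 0.00610) in gut CD8 and 0.50 ± 0.13 (adjusted p = 0.0228) in gut CD4 cells, and fell in the spleen, with -0.37 ± 0.085 (adjusted p = 0.0121) in CD8 and -0.41 ± 0.097 (adjusted p = 0.00818) in CD4 cells. The anti-IL-2 libraries of gut CD8 cells were all above those with IgG, while in spleen CD8 cells only that of batch 190306 was. For Cdt1 the levels were 66.9, 75.96 and 132 CPM with anti-IL-2, against 90.05 and 91.7 CPM with IgG in gut CD8 cells, and 66.6, 68.4 and 141 CPM with anti-IL-2, against 97.9, 91.1 and 102 CPM with IgG in spleen CD8 cells. In both, the anti-IL-2 libraries of batches 181201 and 181212 were below all IgG libraries and that of batch 190306 was above them. The effect on Cdt1 was -0.31 ± 0.11 (adjusted p = 0.0967) in gut CD8 and -0.27 ± 0.12 (adjusted p = 0.141) in gut CD4 cells, and it fell in the spleen, with -0.49 ± 0.091 (adjusted p = 0.00325) in CD8 and -0.49 ± 0.094 (adjusted p = 0.00213) in CD4 cells. Its gut minus spleen difference in effect did not pass, at 0.18 ± 0.15 (adjusted p = 0.610) in CD8 and 0.22 ± 0.15 (adjusted p = 0.437) in CD4 cells.

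Orc1, the subunit of the origin recognition complex whose level follows the cell cycle, fell furthest among the members in both spleen populations. Its spleen CD8 levels were 12.5, 11.2 and 17.5 CPM with anti-IL-2, against 18.4, 18.6 and 13.1 CPM with IgG, and its spleen CD4 levels were 3.71, 5.14 and 7.34 CPM with anti-IL-2, against 7.34, 7.83 and 4.97 CPM with IgG. In batches 181201 and 181212 every anti-IL-2 library was below every IgG library, and in batch 190306 the anti-IL-2 library was above the IgG library. The effect was -0.64 ± 0.16 (adjusted p = 0.0198) in spleen CD8 and -0.79 ± 0.19 (adjusted p = 0.0105) in spleen CD4 cells. In gut it was 0.59 ± 0.22 (adjusted p = 0.101) in CD8 and 0.059 ± 0.24 (adjusted p = 0.896) in CD4 cells, and the gut minus spleen difference passed in CD8 cells, at 1.23 ± 0.27 (adjusted p = 0.0316), and not in CD4 cells, at 0.85 ± 0.31 (adjusted p = 0.129). Orc6, the smallest subunit of the complex, passed in none of the 4 populations, with values from -0.29 in spleen CD8 to 0.28 in gut CD8 cells.

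Of the 4 factors that activate the loaded helicase, Cdc45 passed in all 4 populations. It had 40.8, 40.5 and 50.1 CPM with anti-IL-2, against 30.3 and 35.6 CPM with IgG in gut CD8 cells and 20.9, 24.6 and 23.5 CPM with anti-IL-2, against 16.8 and 25.3 CPM with IgG in gut CD4 cells. In gut CD8 cells the treatments did not overlap, and in gut CD4 cells the IgG library of batch 190306 was the highest. The effect was 0.46 ± 0.13 (adjusted p = 0.0354) in gut CD8 and 0.47 ± 0.14 (adjusted p = 0.0424) in gut CD4 cells. It was -0.36 ± 0.096 (adjusted p = 0.0238) in spleen CD8 and -0.55 ± 0.11 (adjusted p = 0.00274) in spleen CD4 cells. Mcm10 had 42.2, 44.4 and 77.3 CPM with anti-IL-2, against 56.9, 58.6 and 53.9 CPM with IgG in spleen CD8 cells, where it fell (-0.42 ± 0.093), and 40.9, 42.1 and 51.2 CPM with anti-IL-2, against 30.2 and 31.9 CPM with IgG in gut CD8 cells, where it rose (0.53 ± 0.12). Among the GINS subunits, Gins2 fell in spleen CD4 cells (-0.41 ± 0.14), and Gins1, a member of low level at 4.07 to 17.3 CPM, passed in none of the 4 populations.

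Polymerase alpha with its primase starts each new strand, and polymerases delta and epsilon extend it. Pola1, the catalytic subunit of polymerase alpha, had the largest rise in gut CD4 cells and the next after Dscc1 in gut CD8 cells, and did not pass the test in spleen. Its levels were 69.9, 68.7 and 46.3 CPM with anti-IL-2, against 43.99 and 38.4 CPM with IgG in gut CD8 cells and 44.8, 54.1 and 26.3 CPM with anti-IL-2, against 29.7 and 32.6 CPM with IgG in gut CD4 cells. In gut CD4 cells the anti-IL-2 library of batch 190306 was the lowest of the group and below both IgG libraries. Over batches 181201 and 181212 the effect was 0.73 ± 0.10 (adjusted p = 0.000952) in gut CD8 and 0.81 ± 0.11 (adjusted p = 0.000733) in gut CD4 cells, against -0.067 ± 0.077 (adjusted p = 0.646) in spleen CD8 and 0.11 ± 0.082 (adjusted p = 0.381) in spleen CD4 cells. Spleen levels were 74.1, 81.3 and 71.02 CPM with anti-IL-2, against 74.8, 88.2 and 63.6 CPM with IgG in CD8 cells, and the treatments overlapped. Prim1, the catalytic primase subunit, was at 33.4, 35.8 and 27.4 CPM with anti-IL-2, against 24.5 and 22.8 CPM with IgG in gut CD4 cells, where every anti-IL-2 library was above both IgG libraries and the effect was 0.51 ± 0.097 (adjusted p = 0.00543). It fell in spleen CD4 (-0.61 ± 0.075) and spleen CD8 cells (-0.43 ± 0.069) and was at 0.17 ± 0.088 (adjusted p = 0.245) in gut CD8 cells. The catalytic subunits Pold1 of polymerase delta and Pole of polymerase epsilon fell in both spleen populations, Pole most in CD4 cells (-0.63 ± 0.087), and passed in neither gut population. Pola2, the regulatory subunit of polymerase alpha, passed in none of the 4.

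The clamp and its loaders held few calls, with 1 of 6 called lower in each spleen population, 1 higher in gut CD8 cells and 1 lower in gut CD4 cells. Pcna had 105, 105 and 91.6 CPM with anti-IL-2, against 126 and 87.1 CPM with IgG in gut CD4 cells and 133, 116 and 121 CPM with anti-IL-2, against 124 and 100 CPM with IgG in gut CD8 cells. In gut CD4 cells the IgG library of batch 181212 was the highest and that of batch 190306 the lowest of all 5. The effect in batches 181201 and 181212 was -0.30 ± 0.092 (adjusted p = 0.0474) in gut CD4, -0.039 ± 0.093 (adjusted p = 0.840) in gut CD8, -0.16 ± 0.074 (adjusted p = 0.197) in spleen CD8 and -0.13 ± 0.076 (adjusted p = 0.240) in spleen CD4 cells, and passed in gut CD4 cells alone of the 4. Dscc1 was at 7.66, 9.27 and 8.28 CPM with anti-IL-2, against 4.83 and 4.81 CPM with IgG in gut CD8 cells, with no overlap, and rose by 0.82 ± 0.22 (adjusted p = 0.0321). In the spleen it was at -0.46 ± 0.16 (adjusted p = 0.0853) in CD8 and -0.21 ± 0.20 (adjusted p = 0.492) in CD4 cells. Of the RFC subunits, Rfc5 fell in spleen CD4 cells (-0.35 ± 0.089), Rfc4 fell in spleen CD8 cells (-0.34 ± 0.099), and Rfc2 and Rfc3 passed in no population.

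Lig1, which seals the pieces of the lagging strand, passed in all 4 populations, at 0.55 ± 0.083 in gut CD8, 0.37 ± 0.084 in gut CD4, -0.34 ± 0.064 in spleen CD8 and -0.43 ± 0.067 in spleen CD4 cells. Its levels were 200, 201 and 235 CPM with anti-IL-2, against 142 and 161 CPM with IgG in gut CD8 cells, with no overlap, and 65.4, 70.4 and 103 CPM with anti-IL-2, against 84.95, 98.3 and 85.5 CPM with IgG in spleen CD4 cells, with the library of batch 190306 above every IgG library. The flap nuclease Fen1, which works just before Lig1, fell in both spleen populations (-0.29 ± 0.077 in CD8 and -0.34 ± 0.081 in CD4 cells) and passed in neither gut population. Rpa2, which coats single strands, passed in none, with values between -0.15 in spleen CD4 and 0.09 in gut CD4 cells.

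Ribonucleotide reductase makes the building blocks of DNA, and both of its subunits passed in all 4 populations. Rrm2 levels were 127, 141 and 163 CPM with anti-IL-2, against 104 and 109.6 CPM with IgG in gut CD8 cells and 73.9, 87.9 and 107 CPM with anti-IL-2, against 63.7 and 82.8 CPM with IgG in gut CD4 cells. Levels in the spleen were 139, 164 and 243 CPM with anti-IL-2, against 214, 221 and 187 CPM with IgG in CD8 cells and 62.2, 67.7 and 118 CPM with anti-IL-2, against 92.7, 115 and 80.95 CPM with IgG in CD4 cells. Treatments did not overlap in gut CD8 cells, and in both spleen populations batch 190306 held the highest anti-IL-2 and the lowest IgG library. The effect was 0.45 ± 0.088 (adjusted p = 0.00615) in gut CD8 and 0.42 ± 0.091 (adjusted p = 0.00954) in gut CD4 cells. In the spleen it was -0.52 ± 0.068 (adjusted p = 0.000316) in CD8 and -0.67 ± 0.071 (adjusted p = 2.74e-05) in CD4 cells. The gut minus spleen difference was 0.98 ± 0.11 in CD8 and 1.09 ± 0.12 in CD4 cells. Tyms, which makes thymidylate, had 46.5, 43.4 and 48.03 CPM with anti-IL-2, against 33.1 and 34.5 CPM with IgG in gut CD8 cells, with no overlap, and an effect of 0.49 ± 0.13 (adjusted p = 0.0305). Its values were 0.31 ± 0.14 in gut CD4 and -0.22 ± 0.099 in spleen CD8 cells, neither past the test, and it fell in spleen CD4 cells (-0.44 ± 0.11). Tk1 fell in spleen CD4 cells, with 12.7, 14.5 and 26 CPM with anti-IL-2, against 20.97, 25.1 and 18.5 CPM with IgG and an effect of -0.76 ± 0.12 (adjusted p = 0.000527), and its gut minus spleen difference in CD4 cells, 1.24 ± 0.19 (adjusted p = 0.00236), was the largest of the members.

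Of the G1/S regulators some were called in the spleen and none in either gut population. E2f1, a founding member of the E2F family, had 10.5, 13.3 and 23.4 CPM with anti-IL-2, against 21.7, 19.1 and 20.8 CPM with IgG in spleen CD4 cells and 25.4, 25.4 and 47.05 CPM with anti-IL-2, against 36.03, 32.7 and 36.4 CPM with IgG in spleen CD8 cells. In each, the anti-IL-2 libraries of 181201 and 181212 were below all IgG libraries, and that of batch 190306 was above. It fell in spleen CD4 cells, with -0.79 ± 0.16 (adjusted p = 0.00331), and its value in spleen CD8 cells was -0.44 ± 0.14 (adjusted p = 0.0578). In gut it was at 0.39 ± 0.18 (adjusted p = 0.179) in CD8 and 0.38 ± 0.20 (adjusted p = 0.231) in CD4 cells, where the IgG library of batch 190306 had 28.4 CPM and that of batch 181212 had 14.2 CPM. The gut minus spleen difference passed in CD4 cells, at 1.17 ± 0.25 (adjusted p = 0.0181). Ccne1, the other cyclin E, fell in spleen CD4 (-0.70 ± 0.099) and CD8 cells (-0.35 ± 0.091), and unlike most members had negative values in gut, -0.11 ± 0.12 in CD8 and -0.31 ± 0.13 in CD4 cells, neither past the test. Ccne2 had 5.82, 7.96 and 7.12 CPM with anti-IL-2, against 10.3, 11.97 and 4.80 CPM with IgG in spleen CD4 cells, and its effects of -0.70 ± 0.23 (adjusted p = 0.0521) in spleen CD4 and -0.49 ± 0.21 (adjusted p = 0.150) in spleen CD8 cells did not pass. Its gut values were 0.45 ± 0.29 in CD8 and 0.30 ± 0.32 in CD4 cells.

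Newly made DNA is packed into nucleosomes and its methylation copied, and members with these tasks followed the same pattern in part. Uhrf1, which brings the maintenance methyltransferase to new DNA, had 117, 123 and 145 CPM with anti-IL-2, against 85.8 and 104 CPM with IgG in gut CD8 cells and 63.6, 73.9 and 71.8 CPM with anti-IL-2, against 50.1 and 70.6 CPM with IgG in gut CD4 cells. It had 112, 119 and 204 CPM with anti-IL-2, against 169, 159 and 149.7 CPM with IgG in spleen CD8 cells and 46.6, 57.03 and 87.1 CPM with anti-IL-2, against 76.9, 86.5 and 67.8 CPM with IgG in spleen CD4 cells. Gut CD8 treatments did not overlap. The effect was 0.54 ± 0.10 (adjusted p = 0.00504) in gut CD8 and 0.50 ± 0.11 (adjusted p = 0.00795) in gut CD4 cells. In the spleen it was -0.51 ± 0.077 (adjusted p = 0.00087) in CD8 and -0.66 ± 0.082 (adjusted p = 8.8e-05) in CD4 cells. Chaf1a, the large subunit of the histone chaperone CAF-1, likewise passed in all 4, with 0.48 ± 0.11 in gut CD8, 0.40 ± 0.11 in gut CD4, -0.38 ± 0.081 in spleen CD8 and -0.49 ± 0.088 in spleen CD4 cells. Chaf1b, its partner, fell in spleen CD4 cells (-0.37 ± 0.10) and was near 0 in gut, at -0.028 ± 0.12 in CD8 and -0.034 ± 0.12 in CD4 cells. Slbp had 99.9, 106 and 116 CPM with anti-IL-2, against 127, 123 and 102 CPM with IgG in spleen CD8 cells. It fell in spleen CD8 (-0.28 ± 0.073) and CD4 cells (-0.32 ± 0.075), and passed in neither gut population, at 0.15 ± 0.092 in CD8 and -0.042 ± 0.092 in CD4 cells.

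**Figure D5:**
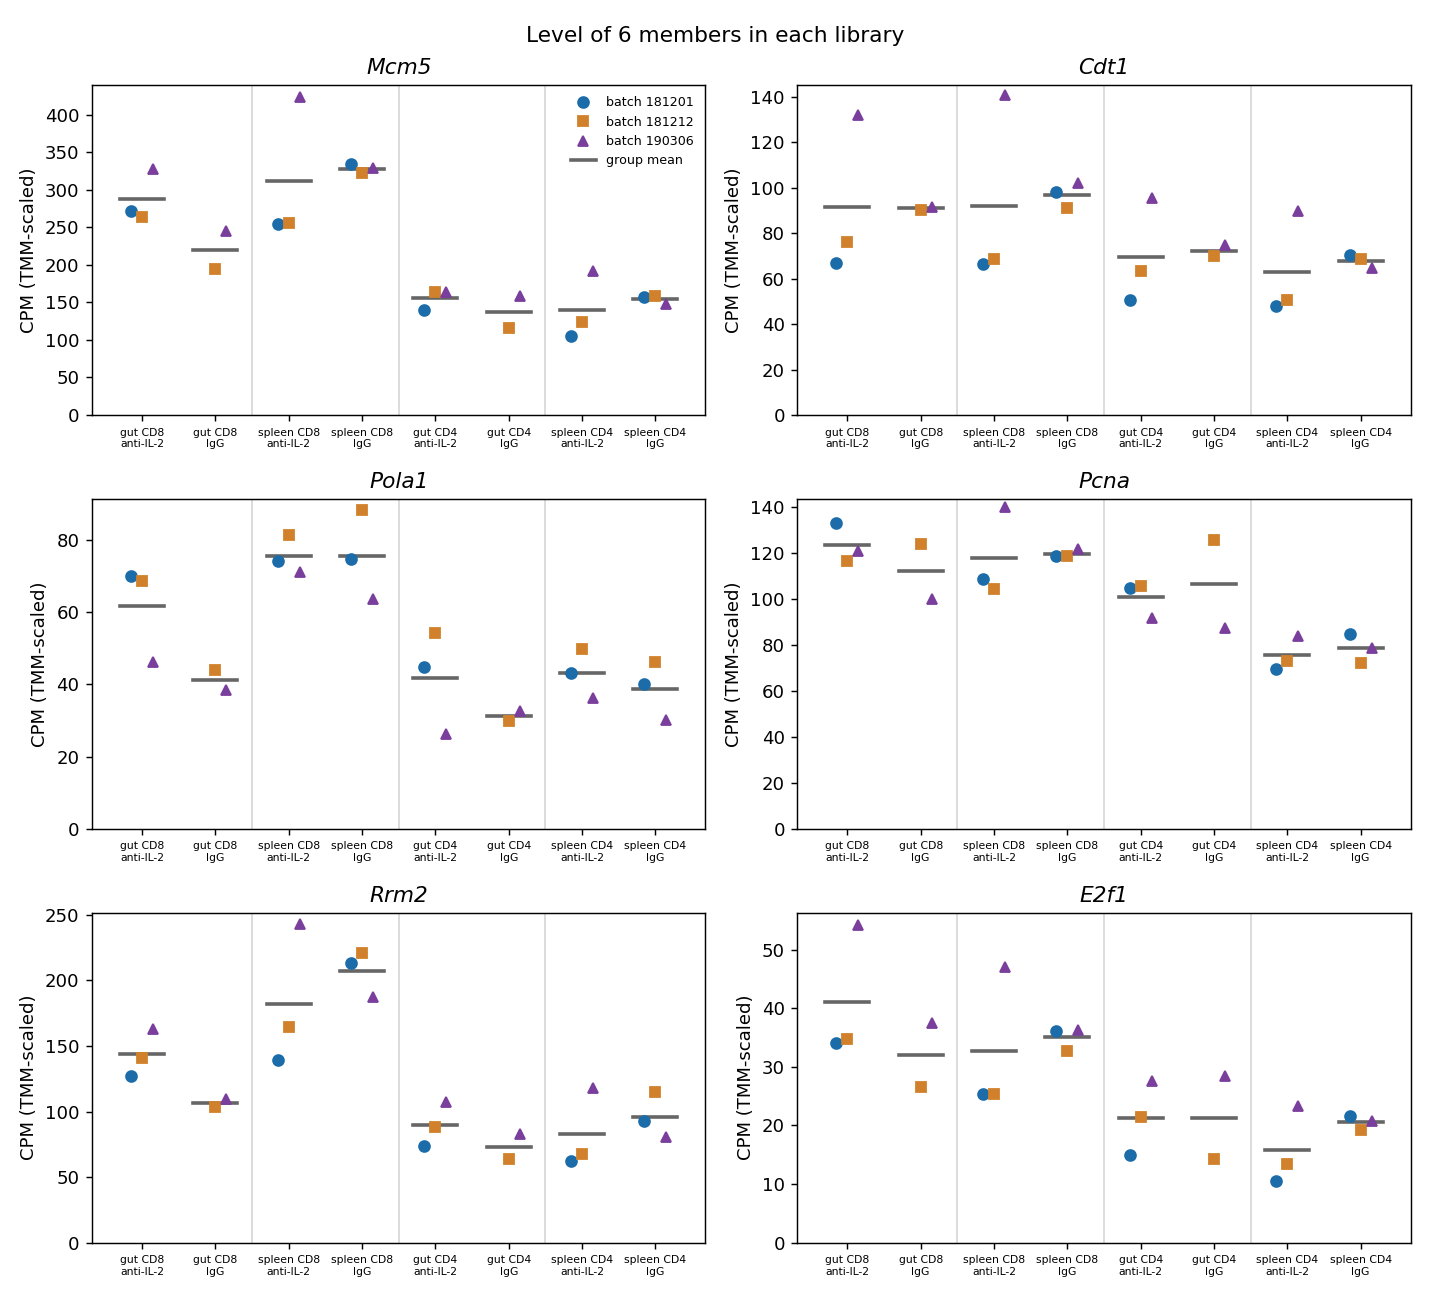
Level in TMM-scaled CPM (y axis, from 0) of Mcm5, Cdt1, Pola1, Pcna, Rrm2 and E2f1 in each of the 22 libraries, by population and treatment (x axis), with the batch as symbol and the group mean as bar. Mcm5 and Rrm2 have their highest value, 424 and 243 CPM, in the spleen CD8 anti-IL-2 library of batch 190306, and Pcna lies between 69.4 and 139.9 CPM with little separation of the treatments.

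Calls among replication genes outside the 39 were mostly higher in gut and lower in spleen with anti-IL-2. They comprise 76 genes of licensing, fork, nucleotide supply, G1/S control and chromatin assembly. With anti-IL-2 in batches 181201 and 181212, 15 rose and 1 fell in gut CD8 cells, and 14 rose and 2 fell in gut CD4 cells, with medians of 0.173 and 0.135. Spleen CD8 cells had 2 that rose and 24 that fell, and spleen CD4 cells 3 that rose and 22 that fell, with medians of -0.176 and -0.159. The higher share over all tested genes was 5.89% in gut CD8 and 6.7% in gut CD4 cells, and the lower share 7.18% in spleen CD8 and 11.8% in spleen CD4 cells. The gut effect was above the spleen effect for 13 in CD8 and 22 in CD4 cells and below it for none, where 1.67% and 4.04% of all tested genes were above. Among 16 other licensing and firing factors, Ticrr, which prepares the helicase for firing, Mcmbp, an MCM partner, and Topbp1 fell in spleen CD8 cells (Ticrr -0.47 ± 0.10, Mcmbp -0.24 ± 0.058, Topbp1 -0.23 ± 0.058). The smallest p in spleen CD4 cells belonged to Ticrr, the helicase Recql4 and Mcmbp (Ticrr -0.69 ± 0.11, Recql4 -0.60 ± 0.15, Mcmbp -0.19 ± 0.058). The kinase Cdc7 was the 1 call in gut CD4 cells (0.41 ± 0.12), ahead of Orc4 and Gins4 (Orc4 0.56 ± 0.18, Gins4 -0.25 ± 0.11, not passing), and none of the 16 passed in gut CD8 cells.

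Of 21 other fork proteins, the checkpoint mediator Clspn rose in gut CD8 (0.42 ± 0.099) and CD4 cells (0.41 ± 0.10) and fell in spleen CD8 (-0.41 ± 0.076) and CD4 cells (-0.72 ± 0.082). The nuclease Dna2 led in gut (0.55 ± 0.11 in CD8 and 0.91 ± 0.12 in CD4 cells), with the polymerase epsilon subunit Pole2 in CD8 (0.70 ± 0.15) and the clamp unloader Atad5 in CD4 cells (0.66 ± 0.11). Chtf18, a partner of Dscc1, fell in spleen CD8 and CD4 cells (-0.53 ± 0.12 and -0.95 ± 0.14), as did Wdhd1 in CD8 (-0.33 ± 0.073) and Rnaseh2b in CD4 cells (-0.48 ± 0.078). Nucleotide genes did not move as a block. Dck, a salvage kinase, rose in gut CD8 (0.52 ± 0.086), gut CD4 (0.62 ± 0.087) and spleen CD4 cells (0.57 ± 0.065). Cad, the first enzyme of pyrimidine synthesis, fell in gut CD4 (-0.55 ± 0.075), spleen CD8 (-0.32 ± 0.060) and spleen CD4 cells (-0.45 ± 0.060). Dut and Ctps rose in gut CD8 cells (Dut 0.40 ± 0.086, Ctps 0.54 ± 0.13) and the nucleotide hydrolase Samhd1 in spleen CD4 cells (0.32 ± 0.054).

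Among 20 other G1/S regulators, Ccna2, the S phase cyclin, and the E2F family members E2f8 and E2f2 fell in spleen CD8 (Ccna2 -0.54 ± 0.073, E2f8 -0.60 ± 0.085, E2f2 -0.43 ± 0.062) and CD4 cells (Ccna2 -0.84 ± 0.076, E2f8 -0.80 ± 0.094, E2f2 -0.68 ± 0.063). With anti-IL-2 Myc and Cdk4 rose and E2f2 fell in gut CD8 cells (Myc 0.70 ± 0.10, Cdk4 0.38 ± 0.093, E2f2 -0.39 ± 0.078), and in gut CD4 cells Rbl1, E2f3 and E2f8 rose (Rbl1 0.45 ± 0.074, E2f3 0.52 ± 0.11, E2f8 0.45 ± 0.12). Of 7 other chromatin assembly genes, Atad2 and the maintenance methyltransferase Dnmt1 rose in gut CD8 (Atad2 0.66 ± 0.073, Dnmt1 0.35 ± 0.070) and CD4 cells (Atad2 0.62 ± 0.074, Dnmt1 0.31 ± 0.070), with Casp8ap2 in CD4 cells (0.29 ± 0.085). Next by p in gut CD8 cells was Hells (0.63 ± 0.19, not passing). The histone chaperone Asf1b fell with Dnmt1 in spleen CD8 (Asf1b -0.49 ± 0.073, Dnmt1 -0.29 ± 0.055) and CD4 cells (Asf1b -0.70 ± 0.079, Dnmt1 -0.32 ± 0.055), and Atad2 in spleen CD8 cells (-0.20 ± 0.056). Next by p in spleen CD4 cells was Asf1a, with a positive value (0.35 ± 0.14, not passing).

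Genes of mitosis, the phase that follows replication, were called throughout the spleen in batches 181201 and 181212. All 25 listed fell with anti-IL-2 in each spleen population of batches 181201 and 181212, with medians of -0.421 in CD8 and -0.736 in CD4 cells. The smallest p belonged to Mki67, Cenpe and Aurkb in CD8 (Mki67 -0.58 ± 0.071, Cenpe -0.44 ± 0.063, Aurkb -0.51 ± 0.075) and to Cenpe, Mki67 and Cenpf in CD4 cells (Cenpe -0.94 ± 0.066, Mki67 -0.84 ± 0.072, Cenpf -0.81 ± 0.078). Of the 25, 2 rose in gut CD8 cells, with a median of 0.116, and 3 in gut CD4 cells, with a median of 0.138, where 5.89% and 6.7% of all tested genes were higher. These were Top2a and Cdk1 in CD8 (Top2a 0.46 ± 0.086, Cdk1 0.46 ± 0.14) and Top2a, Nuf2 and Kif11 in CD4 cells (Top2a 0.60 ± 0.086, Nuf2 0.62 ± 0.12, Kif11 0.34 ± 0.10). Whether replication and mitosis genes differed in their share of calls in the gut was not tested. The gut effect was above the spleen effect for 13 of 25 in CD8 and 24 of 25 in CD4 cells. Batch 190306 had the higher treatment difference for 25 of 25 in both spleen populations, with medians of 0.833 in CD8 and 1.27 in CD4 cells. The shares of all tested genes in these comparisons are those given with the 39 genes above.

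By cell type, 59 of the 76 other replication genes were higher and 7 lower in CD8 than in CD4 cells of the spleen. In gut 48 were higher and 7 lower. Over all tested genes 30.6% were higher and 31.6% lower in spleen, and 24.2% higher and 25.7% lower in gut. The fork protection factor Timeless, the ribonuclease subunit Rnaseh2b and the fork factor Wdhd1 had the smallest p of the fork list in spleen (Timeless 1.06 ± 0.077, Rnaseh2b 0.99 ± 0.073, Wdhd1 0.77 ± 0.066). In gut these were Rnaseh2b, Timeless and Pole2 (Rnaseh2b 0.81 ± 0.084, Timeless 0.74 ± 0.085, Pole2 0.91 ± 0.11). In the licensing list these were Topbp1, the licensing inhibitor geminin (Gmnn) and Gins4 in spleen (Topbp1 0.59 ± 0.048, Gmnn 0.99 ± 0.090, Gins4 0.41 ± 0.041). They were Gins4, Topbp1 and Mcm8 in gut (Gins4 0.34 ± 0.046, Topbp1 0.39 ± 0.052, Mcm8 0.95 ± 0.14). Nucleotide genes gave Dut and Paics in spleen (Dut 0.94 ± 0.083, Paics 0.41 ± 0.041) and Cad and Dut in gut (Cad 0.42 ± 0.061, Dut 0.60 ± 0.091). Chromatin genes gave Dnmt1, Asf1b and Nasp in spleen (Dnmt1 0.75 ± 0.077, Asf1b 1.16 ± 0.12, Nasp 0.61 ± 0.098) and Dnmt1, Asf1b and Hells in gut (Dnmt1 0.49 ± 0.084, Asf1b 0.69 ± 0.13, Hells 0.55 ± 0.14). Among the lower genes were regulators of the G1 phase, the cyclin Ccnd2 and the inhibitor Cdkn1b, in spleen (Ccnd2 -1.11 ± 0.086, Cdkn1b -0.44 ± 0.040) and in gut (Ccnd2 -1.19 ± 0.094, Cdkn1b -0.47 ± 0.044). The inhibitor Cdkn1a was also lower in gut (-1.51 ± 0.16), and Ccna2 was higher in spleen (1.32 ± 0.13). The mitosis genes Aurkb, Birc5 and Cdca8 were higher in spleen CD8 cells (Aurkb 1.23 ± 0.12, Birc5 1.37 ± 0.13, Cdca8 1.27 ± 0.12), as were 25 of 25 of the list in spleen and 24 of 25 in gut.

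By organ, 47 of the 76 were lower and 4 higher in gut than in spleen CD8 cells, where 26.2% of all tested genes were lower and 24.4% higher. In CD4 cells 20 of the 76 were lower in gut, a share near the 24.8% of all tested genes that were lower, and 7 were higher, where 26.1% of all tested genes were. Samhd1 and Dck led the nucleotide genes in both cell types (Samhd1 -0.93 ± 0.070 and Dck -0.68 ± 0.077 in CD8, Samhd1 -0.94 ± 0.070 and Dck -0.74 ± 0.077 in CD4 cells), with Paics in CD8 (-0.32 ± 0.044) and Gart in CD4 cells (-0.43 ± 0.056). The clamp loader subunit Rfc1, Rnaseh2b and Pole2 led the fork list in CD8 (Rfc1 -0.31 ± 0.045, Rnaseh2b -0.67 ± 0.078, Pole2 -0.76 ± 0.10) and CD4 cells (Rfc1 -0.33 ± 0.046, Rnaseh2b -0.49 ± 0.083, Pole2 -0.56 ± 0.11). Cdkn1a was higher in gut (0.88 ± 0.17 in CD8 and 1.55 ± 0.15 in CD4 cells). E2f2 and Rbl1 were lower in gut CD8 cells (E2f2 -0.64 ± 0.076, Rbl1 -0.46 ± 0.072), and Cdk6 and Myc were lower in gut CD4 cells (Cdk6 -0.47 ± 0.090, Myc -0.64 ± 0.12). The licensing list was led by Mcmbp and Orc5, lower in both (Mcmbp -0.19 ± 0.036 and Orc5 -0.40 ± 0.082 in CD8, Mcmbp -0.17 ± 0.036 and Orc5 -0.36 ± 0.084 in CD4 cells), with Topbp1 lower in CD8 (-0.25 ± 0.051) and Recql4 higher in CD4 cells (0.34 ± 0.13). The chaperone Asf1a was lower in both (-0.42 ± 0.081 in CD8, -0.35 ± 0.081 in CD4 cells), and Dnmt1 and Casp8ap2 were lower in gut CD8 cells (Dnmt1 -0.40 ± 0.083, Casp8ap2 -0.31 ± 0.071). Of the mitosis genes 23 of 25 were lower in gut CD8 cells, led by Mki67, Cenpf and Ttk (Mki67 -0.74 ± 0.13, Cenpf -0.69 ± 0.13, Ttk -0.73 ± 0.14), and none passed in CD4 cells by edgeR.

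Markers of other cells moved with treatment in the same libraries. In spleen CD4 cells of batches 181201 and 181212, macrophage markers summed to 27.4 to 168 CPM with anti-IL-2, against 13.5 to 30.7 CPM with IgG, with 8 of 8 markers higher on average. B cell markers summed to 151 to 183 CPM with anti-IL-2, against 62.1 to 82.6 CPM with IgG, with 4 of 5 higher. Spleen CD8 cells of those batches had 51.3 to 93.9 CPM of macrophage markers with anti-IL-2, against 31.4 to 46.5 CPM with IgG, again 8 of 8 higher. NK cell markers, some of which activated CD8 cells also express, summed to 11.1 to 16.2 CPM there with anti-IL-2, against 83 to 96.7 CPM with IgG, and in gut CD8 cells to 9.61 to 14.4 CPM, against 99.7 CPM. Of the 2 NK markers, both were lower in these spleen CD8 cells, and 1 was lower and 1 higher in gut CD8 cells. In batch 190306 the NK sum was higher with anti-IL-2, at 27.4 against 5.91 CPM in spleen CD8 and 30.5 against 6.38 CPM in gut CD8 cells, with 1 of 2 markers higher in each. The macrophage sum of batch 190306 ran the other way too, 53.5 CPM with anti-IL-2 against 84.4 CPM with IgG in spleen CD8 cells and 23.8 against 136 CPM in spleen CD4 cells, with 7 of 8 markers lower in each. Neutrophil markers were at 32.9 CPM with anti-IL-2 against 0.972 CPM with IgG in spleen CD8 cells of that batch, and at 51.1 against 0.885 CPM in spleen CD4 cells. The dendritic cell marker Siglech and the fat marker Plin1 were at 0 in the spleen libraries of batches 181201 and 181212. Gut libraries of batches 181201 and 181212 held markers of pancreas, fibroblasts and fat with anti-IL-2 that were near 0 with IgG. Pancreas markers in gut CD8 cells were at 12.5 to 28.9 CPM with anti-IL-2, against 0.319 CPM with IgG, and fibroblast markers at 14.5 to 16.1 CPM, against 0.478 CPM. All 4 and all 5 of these markers were higher. Gut CD4 cells had 7.18 to 19.1 CPM of pancreas markers with anti-IL-2, against 0.334 CPM with IgG. In batch 190306 the pancreas sum in gut CD8 cells was 0.744 CPM with anti-IL-2 against 2.22 CPM with IgG. Epithelial markers in gut CD8 cells summed to 59.7 to 92.9 against 49 CPM in batches 181201 and 181212, and to 92.6 against 44.1 CPM in batch 190306. In gut CD4 cells they summed to 28.5 to 43.1 against 34.5 CPM and to 95.7 against 17.8 CPM. The epithelial markers did not move as 1. In gut CD8 cells of batches 181201 and 181212, 5 of 6 were higher on average with anti-IL-2 and 1 was lower. In batch 190306, 3 were higher and 3 lower there. Gut CD4 cells had 4 higher and 2 lower in batches 181201 and 181212, and 6 higher in batch 190306. Macrophage markers in gut CD8 cells summed to 91.6 to 98.1 against 42.1 CPM, and in batch 190306 to 51.6 against 70.3 CPM. Stress and immediate early genes had the lower sum with anti-IL-2 in the gut. It was 1070 to 1920 CPM with anti-IL-2 against 2550 CPM with IgG in gut CD8 cells of batches 181201 and 181212, and 697 against 1990 CPM in batch 190306. In gut CD4 cells it was 1600 to 2210 CPM against 2920 CPM in batches 181201 and 181212, and 1190 against 2660 CPM in batch 190306. Of these 6 genes, 4 were lower and 2 higher in each gut population of batches 181201 and 181212. There Hspa1a was at 6.2 in CD8 and 6.4 in CD4 cells on the log2 scale, and Hspa1b at 5.3 and 6.3. In the spleen of those batches the sum was higher with anti-IL-2. It was 466 to 894 against 256 to 406 CPM in CD4 and 243 to 499 against 197 to 240 CPM in CD8 cells. The part of these cells and genes in the differences of the 39 genes was not tested.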

How the data were processed

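RNA of 22 libraries of sorted donor T cells was measured after preparation with a stranded mRNA kit, per the labels' protocols. Per the submitters' processing notes, TopHat2 and HTSeq 0.9.1 were used with genome build mm10; annotation and strand setting are not given in the sources used here. The authors deposited raw counts per gene symbol, and 0 columns were left unused. Genes with at least 1 CPM in at least 5 libraries (11453) were tested in R 4.3.3 with edgeR 4.0.16, by robust quasi-likelihood tests on TMM-scaled counts with Benjamini-Hochberg adjustment over all of them and a threshold of 0.05. Log2 CPM used a prior count of 2. Depth was 14628806 to 24518362 counts per library. Treatment was tested with 8 groups and batch, in 14 libraries of batches 181201 and 181212 (5 residual degrees of freedom) and in all 22 (12). Separate means for batch 190306 tested its difference (5). Organ and cell type were tested in 4 populations with batch and treatment combinations as a block (13). Batch, given in the labels, is the pairing. The SE is the log2 fold change divided by the root of F. Alternatives were DESeq2 1.42.0, RLE scaling, other filters, no block, 8 groups and batch for organ and cell type, leaving out batch 190306 and leaving out each library; code was tested on simulated data. No pair of libraries of a group agreed within sampling noise. Overlapping and near-identical genes cannot be told apart in these counts.

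The members, the other lists and the batches fitted together were chosen with earlier results of these data known. In each comparison the rule named the 6 largest changes past 0.05, members that go against their role, Mcm5, Cdc6, Cdt1, Cdc45, Pola1, Pcna, Rrm2, Tyms, E2f1, Ccne1, Ccne2, Uhrf1, Chaf1a and Slbp, and the 3 genes with the smallest p of each other list with any call. It was followed for the treatment comparisons of single populations, except that some genes of the other lists were left out. For the other comparisons the largest changes and counts are given. The values of 1 gene of the nucleotide list are not reported here.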

Additional observations from a re-analysis of the deposited data

Results flagged for a closer look

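The treatment effect differed between the organs, by a test of the difference itself, for 22 members in CD8 and 21 in CD4 cells of batches 181201 and 181212, each higher in gut than in spleen. Both counts lie above the share over all tested genes given earlier. These batches were fitted together knowing that their spleen differences agreed.

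Between batch 190306 and the other batches the treatment difference was higher for 29 members in spleen CD8 and 30 in spleen CD4 cells. Both counts lie above the share over all tested genes given earlier. The split was made knowing that the spleen differences ran opposite ways. In gut CD8 cells it was higher for 3, where 6.99% of all tested genes were higher, and in gut CD4 cells higher for 2 and lower for 3, where 8.4% of all tested genes were higher and 7.8% lower. These gut counts are near or below the share over all genes. In batch 190306 each group is 1 library.

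The gut minus spleen difference was lower in CD8 than in CD4 cells for 4 members, where 2.7% of all tested genes were lower. The count ran from 1 to 9 when single libraries were left out, was 2 without batch 190306, and was 0 without the block and with 8 groups and batch.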

How the results depend on the processing

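Some settings added calls in the other direction, as the counts below show. In the spleen the treatment difference of batch 190306 ran opposite to that of the other batches for most members. Counts of members, of 39, are compared here with the ranges that leaving out 1 library gave. For anti-IL-2 against IgG in batches 181201 and 181212 the calls were 12 to 16 higher in gut CD8, 2 to 14 higher and 0 to 1 lower in gut CD4, 5 to 24 lower in spleen CD8 and 17 to 26 lower in spleen CD4 cells. The gut minus spleen effect was higher for 11 to 22 in CD8 and 11 to 22 in CD4 cells. Batch 190306 had a higher treatment difference than the others for 21 to 31 in spleen CD8, 27 to 30 in spleen CD4, 2 to 4 in gut CD8 and 1 to 2 in gut CD4 cells, and a lower one for 0 to 1 in gut CD8 and 1 to 4 in gut CD4 cells. Gut against spleen gave 14 to 26 lower in CD8, and 5 to 7 higher and 0 to 3 lower in CD4 cells, and the organ difference was lower in CD8 than in CD4 cells for 1 to 9. CD8 against CD4 gave 39 in spleen in each and 37 to 39 in gut. The remaining counts were 0 throughout. Leaving out the lone gut IgG library of batches 181201 and 181212 leaves no gut treatment comparison and gave no value.

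Where the replicate block (the batch, or batch and treatment) was left out, 5 members were higher and 0 lower in gut CD4 cells, 8 had the higher gut than spleen effect in CD8 cells, 1 was lower for batch 190306 in gut CD4 cells, 3 were higher in gut CD4 cells against spleen, 13 were lower in gut CD8 cells against spleen, and 0 had a lower organ difference in CD8 cells; other counts stayed within 1.5 times. With DESeq2 the counts were 0 lower in gut CD4 cells, 1 higher in gut CD8 cells over all batches, for batch 190306 19 in spleen CD8 and 1 each in gut CD4 and gut CD8 cells, 1 lower in gut CD4 cells against spleen, and 8 with a lower organ difference in CD8 cells. The edgeR filter by expression gave 0 lower in gut CD4 cells, and no filter gave 2 for the organ difference. With 8 groups and batch, 1 was lower in gut CD4 cells against spleen and 0 had a lower organ difference. Without batch 190306, gut against spleen in CD8 cells gave 1 higher and 4 lower, and the organ difference gave 2. Other planned settings changed these counts by at most 1.5 times. For single genes, 5902 of the leave-one-out results kept their call, 170 lost and 41 gained it, and 1742, 93 and 10 did so under the other settings. The median of all genes moved to at most 0.0284 from 0 under another scaling. The causes were not tested.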
